A study of Mus musculus with 18 samples.

Results

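The 34 genes described here are the mouse genes of glycolysis and of the transcriptional response to low oxygen, taken by symbol from 23900 gene names kept in the deposited tables. They comprise 2 glucose transporters, 18 genes of the glycolytic steps and lactate formation, and 14 genes of the hypoxia response. RNA was sequenced from C57BL/6 mouse embryos that lack Pitx1, the hindlimb homeodomain transcription factor, and from wild-type embryos. The groups were Pitx1-/- and wild type at embryonic day 9.5 (E9.5), taken from the field of the future hindlimb with adjoining trunk, and Pitx1-/- and wild type at E11.5 and at E12.5, taken from the hindlimb. There were 3 libraries in each of the 6 groups, and 18 altogether. The labels give the strain as C57BL/6 in every group and do not say which part of Pitx1 the allele lacks. They also do not say whether the libraries of a group came from separate embryos, and a p-value here speaks of the spread among libraries alone, which may be technical.

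Glycolysis breaks glucose down to pyruvate, and lactate dehydrogenase can turn pyruvate into lactate. Hypoxia-inducible factor 1 (HIF-1), whose alpha subunit is encoded by Hif1a, binds short DNA elements with the core ACGTG or GCGTG and switches on many glycolytic genes together with genes of vessel growth, matrix formation and oxygen sensing. Prolyl hydroxylases encoded by the Egln genes mark the alpha subunit for destruction when oxygen is present. Most steps can be carried out by more than 1 isoenzyme, and early embryos are known for high rates of lactate formation.

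Depth ranged from 14312425 to 60465013 fragments per library. At E9.5 all knockout libraries were shallower than all wild-type libraries, at E11.5 they were all deeper, and at E12.5 the ranges overlapped. Pitx1 RNA lay between 18.3 and 25.0 RPKM in the knockout libraries and between 48.5 and 58.8 in the wild-type libraries at E9.5 (RPKM, fragments scaled per kilobase of gene and by library size, in the authors' normalization). At E11.5 the ranges were 17.3 to 23.2 RPKM in the knockout and 109.0 to 138 in the wild type, and at E12.5 10.8 to 13.4 in the knockout and 44.6 to 114 in the wild type. The lowest wild-type value at E12.5 belonged to replicate 3. All 10 limb mesenchyme markers were above 0.1 RPKM in every group, with summed levels of 313 to 449 RPKM at E9.5 and 671 to 828 at the later stages over both genotypes. The 34 genes together took 0.586 to 0.765% of fragments in knockout and 0.596 to 0.769% in wild-type libraries at E9.5. At E11.5 they took 0.325 to 0.346% in the knockout and 0.345 to 0.369% in the wild type, and at E12.5 0.391 to 0.408% in the knockout and 0.386 to 0.398% in the wild type.

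The promoters of 4 genes are shown because 3 of these genes fell and 1 rose between the first stages, a change that the results turn on. Slc2a1 encodes the glucose transporter GLUT1, Hk2 a hexokinase, and Ldha and Ldhb the muscle-type and heart-type subunits of lactate dehydrogenase. Each sequence is the 250 bases before the most upstream start listed by RefSeq (GRCm38.p6), on the gene's strand. Capitals mark the letters ACGTG or GCGTG on either strand, and letters that overlap count as 1 site.
Slc2a1, chr4:119108495-119108744, plus strand: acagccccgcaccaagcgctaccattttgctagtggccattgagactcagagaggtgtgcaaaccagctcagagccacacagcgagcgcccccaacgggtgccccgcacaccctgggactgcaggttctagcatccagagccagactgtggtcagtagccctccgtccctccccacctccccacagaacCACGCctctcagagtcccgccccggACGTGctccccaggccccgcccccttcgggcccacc
Hk2, chr6:82774455-82774704, minus strand: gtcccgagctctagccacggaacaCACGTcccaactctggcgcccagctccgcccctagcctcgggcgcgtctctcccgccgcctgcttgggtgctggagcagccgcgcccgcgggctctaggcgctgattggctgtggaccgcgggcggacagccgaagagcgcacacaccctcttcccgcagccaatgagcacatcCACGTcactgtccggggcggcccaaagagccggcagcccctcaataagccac
Ldha, chr7:46845554-46845803, plus strand: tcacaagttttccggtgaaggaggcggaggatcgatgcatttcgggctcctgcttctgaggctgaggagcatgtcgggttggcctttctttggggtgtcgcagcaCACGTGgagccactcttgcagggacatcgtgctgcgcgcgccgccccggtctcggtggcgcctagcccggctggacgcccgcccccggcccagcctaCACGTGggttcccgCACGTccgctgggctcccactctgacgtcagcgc
Ldhb, chr6:142507958-142508207, minus strand: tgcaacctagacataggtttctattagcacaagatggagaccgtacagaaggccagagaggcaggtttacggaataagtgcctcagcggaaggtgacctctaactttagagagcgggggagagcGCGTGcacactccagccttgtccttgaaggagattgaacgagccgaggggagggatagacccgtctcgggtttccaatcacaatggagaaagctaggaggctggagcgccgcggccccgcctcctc
Ldha held 3 sites, Slc2a1 and Hk2 2 each and Ldhb 1. A window was at hand for 32 of the 34 genes, and 24 of these, or 75.0%, held at least 1 site, against 38.6% of the windows of 27025 genes. At least 2 sites were found in 46.9% of the 32 windows and in 13.6% of all windows. The cores are rich in G and C, and so were the windows, with a median GC content of 59.2% for the 32 and 52.0% for all. Such a match is a run of letters and no measure of binding. The 4 genes shown were picked by their change in these data. Among genes not shown, Aldoa, Tpi1 and Gpi1 held 0 sites and fell between these stages, and Ddit4 held 2 and rose. On the other side, Pgk1 with 2 sites and Pgam1 with 3 fell, and Hk1 with 0 rose. Whether the number of sites goes with the direction of change was not tested.

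Near-identical copies limit what can be said of 8 of the 34 genes. A copy was counted where a transcript of another gene in GENCODE M21 matched at least 50% of the coding sequence at 95% identity or more. Gapdh, which encodes the glyceraldehyde-3-phosphate dehydrogenase of the middle of the pathway, had 74 such copies, and its level was 0.155 to 0.973 RPKM, with 5 to 32 fragments per library. Genes of the steps just before and after it were measured at far higher RPKM levels, at least 204 for the triosephosphate isomerase gene Tpi1 and at least 10.7 for the phosphoglycerate kinase gene Pgk1. Eno1, which encodes the main enolase of most tissues, had 3 copies and lay at 0 to 4.83 RPKM, while its copy Eno1b lay at 34.8 to 130 RPKM. The other copy-bearing genes were Bnip3 with 4 copies, Pgk1 and Ldha with 2 each, and Gpi1, Pgam1 and Ldhb with 1 each. The sources used here do not give how a fragment that fits several copies was assigned, so values of these 8 genes are uncertain.

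In wild-type embryos RNA of the glucose transporters and of most glycolytic steps was lower at E11.5 than at E9.5, while some isoenzymes rose. This comparison sets the E11.5 hindlimb against the E9.5 field with trunk, so stage and dissected tissue cannot be told apart. In bulk tissue, fewer cells of a type and less RNA per cell cannot be told apart either. Of the 34 genes, 8 were higher and 16 lower in E11.5 than in E9.5 wild-type libraries, with 10 not past the threshold (edgeR's quasi-likelihood test in a fit of the 12 libraries of both stages, adjusted p under 0.05). Over all 15353 genes tested, 28.3% were higher and 27.6% lower, so the share of the 34 that was lower, 16 genes, lay above the background and the 8 higher lay near it. The median log2 fold change was -0.32 over the 34 genes and 0.01 over all genes tested. Without the 8 copy-bearing genes 7 of 26 were higher and 11 lower. Marker genes of cell types differed in the same comparison. Of 10 endothelial markers tested, 1 was higher and 8 were lower. Of 10 macrophage markers 9 were higher and 0 lower, and of 11 cartilage markers 9 were higher and 1 lower. Of 10 limb mesenchyme markers 7 were higher and 1 lower, and of 13 red blood cell markers 2 were higher and 3 lower. The part of these cell types in the changes of the 34 genes was not tested.

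Slc2a1 measured 44.9, 39.2 and 47.96 RPKM in the E11.5 wild-type libraries, against 239, 194.0 and 270.3 in those of E9.5, in tables normalized separately by stage. All E11.5 libraries lay far below all E9.5 libraries. The log2 fold change was -2.49 ± 0.14 (SE, edgeR adjusted p = 2.73e-08), the largest fall among the 34. Slc2a3, which encodes the high-affinity transporter GLUT3, measured 41.8, 43.8 and 42.3 RPKM at E11.5 and 94.9, 51.8 and 176.6 at E9.5. The E9.5 values were scattered, with replicate 3 the highest, and the fall of 1.41 ± 0.46 (SE, log2, edgeR adjusted p = 0.0266) did not pass without that replicate, with a log2 fold change of -0.85 (adjusted p = 0.0994), nor without any 1 of the E11.5 replicates (adjusted p = 0.067 to 0.0695).

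The hexokinases, which trap glucose in the cell, moved in opposite directions. Hk2 measured 12.8, 11.1 and 13.2 RPKM in E11.5 and 28.3, 25.2 and 34.97 in E9.5 wild-type libraries, a log2 fold change of -1.33 ± 0.12 (SE, edgeR adjusted p = 1.02e-06). Hk1 measured 17.1, 17.6 and 17.3 RPKM at E11.5 and 9.21, 8.73 and 9.49 at E9.5, a log2 fold change of 0.85 ± 0.08 (SE, edgeR adjusted p = 1.88e-06). Neither gene had libraries that overlapped between the stages. As a share of the summed RPKM of both genes, Hk1 made up 58.4 ± 2.46% at E11.5 and 23.9 ± 2.28% at E9.5 in the wild type (SD, n = 3 each).

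Phosphofructokinase, the main control point of the pathway, showed the same kind of divergence between its subunit genes. Pfkl, the liver type, fell by 1.18 ± 0.13 on the log2 scale (SE, edgeR adjusted p = 7.86e-06), with means of 63.5 ± 4.32 RPKM at E11.5 and 137 ± 24.1 at E9.5 (SD, n = 3 each). Pfkm, the muscle type, rose by 0.41 ± 0.07 (SE, edgeR adjusted p = 0.000303), with means of 31.8 ± 0.273 RPKM at E11.5 and 22.9 ± 1.24 at E9.5. Pfkp, the platelet type, lay at 1.28 to 2.75 RPKM over all 18 libraries and did not pass (log2 fold change 0.02 ± 0.18). The share of Pfkm among the 3 genes was 32.9 ± 1.65% at E11.5 and 14.4 ± 2.59% at E9.5.

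The isomerase, aldolase and phosphoglycerate kinase genes that passed the test fell, as did Pgam1. Aldoa, which encodes the main aldolase and was the second most abundant of the 34 by mean RPKM, measured 340.1, 261 and 309 RPKM in E11.5 and 836, 723 and 905 in E9.5 wild-type libraries (log2 fold change -1.51 ± 0.13, edgeR adjusted p = 5.36e-07). Tpi1 fell by 0.99 ± 0.12 and Gpi1, the glucose-6-phosphate isomerase gene, by 0.92 ± 0.09 (SE, log2). Pgk1 fell by 1.54, Pgam1, a phosphoglycerate mutase gene, by 1.74, and Aldoc, a minor aldolase gene, by 0.999 on the log2 scale (adjusted p = 2.79e-05, 4.42e-06 and 0.0288, edgeR). Aldoc had a mean of 2.23 RPKM at E11.5 and 4.21 at E9.5, and its adjusted p was 0.0566 to 0.104 without E9.5 replicate 1 or 3 or any 1 of the E11.5 replicates. Gapdh, at under 1 RPKM, did not pass (log2 fold change -0.53 ± 0.43).

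Pgam2, the muscle phosphoglycerate mutase gene, measured 7.72, 7.32 and 4.04 RPKM in E11.5 and 0.300, 0.635 and 0.762 in E9.5 wild-type libraries, a log2 fold change of 3.45 ± 0.44 (SE, edgeR adjusted p = 1.67e-05). Of the 14 skeletal muscle markers tested, 8 were higher and 1 lower. The 15 listed summed to 50.4 to 182 RPKM at E11.5 and 63.6 to 71.6 at E9.5, when Myod1, Ckm, Ttn, Myh3 and Neb were under 0.1 RPKM, and the part of muscle cells in the change of Pgam2 was not tested. Eno2, the neuronal enolase gene, rose by 2.02 ± 0.49 (SE, log2) at low levels, with 1.15, 1.07 and 0.867 at E11.5 and 0.241, 0.239 and 0.237 at E9.5. Of the 10 neuron markers 1 was higher and 2 lower in the same comparison. Eno3, the muscle enolase gene, fell by 1.25 ± 0.16 (SE, log2), with 31.6, 23.8 and 35.4 RPKM at E11.5 and 65.6, 78.9 and 59.6 at E9.5. Eno1 fell by 2.40 ± 0.43 and its copy Eno1b by 1.42 ± 0.18 (SE, log2, adjusted p = 0.000552 and 4.65e-05, edgeR).

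The lactate dehydrogenase genes diverged as well. Ldha, the most abundant of the 34 by mean RPKM, measured 386, 331 and 387.5 RPKM in E11.5 and 1207, 1052 and 1255 in E9.5 wild-type libraries (log2 fold change -1.77 ± 0.13, edgeR adjusted p = 1.33e-07). Ldhb measured 155, 153 and 155 RPKM at E11.5 and 50.4, 56.3 and 35.2 at E9.5 (log2 fold change 1.63 ± 0.15, edgeR adjusted p = 2.47e-06). The stages did not overlap for either gene. The share of Ldhb in the summed RPKM of the pair was 29.6 ± 1.72% at E11.5 and 3.94 ± 1.18% at E9.5 (SD, n = 3 each). In their promoters shown above Ldha held 3 sites of the HIF-1 core and Ldhb 1, which is a description of the letters. A link of these sites to the direction of change was not tested.

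**Figure D1:**
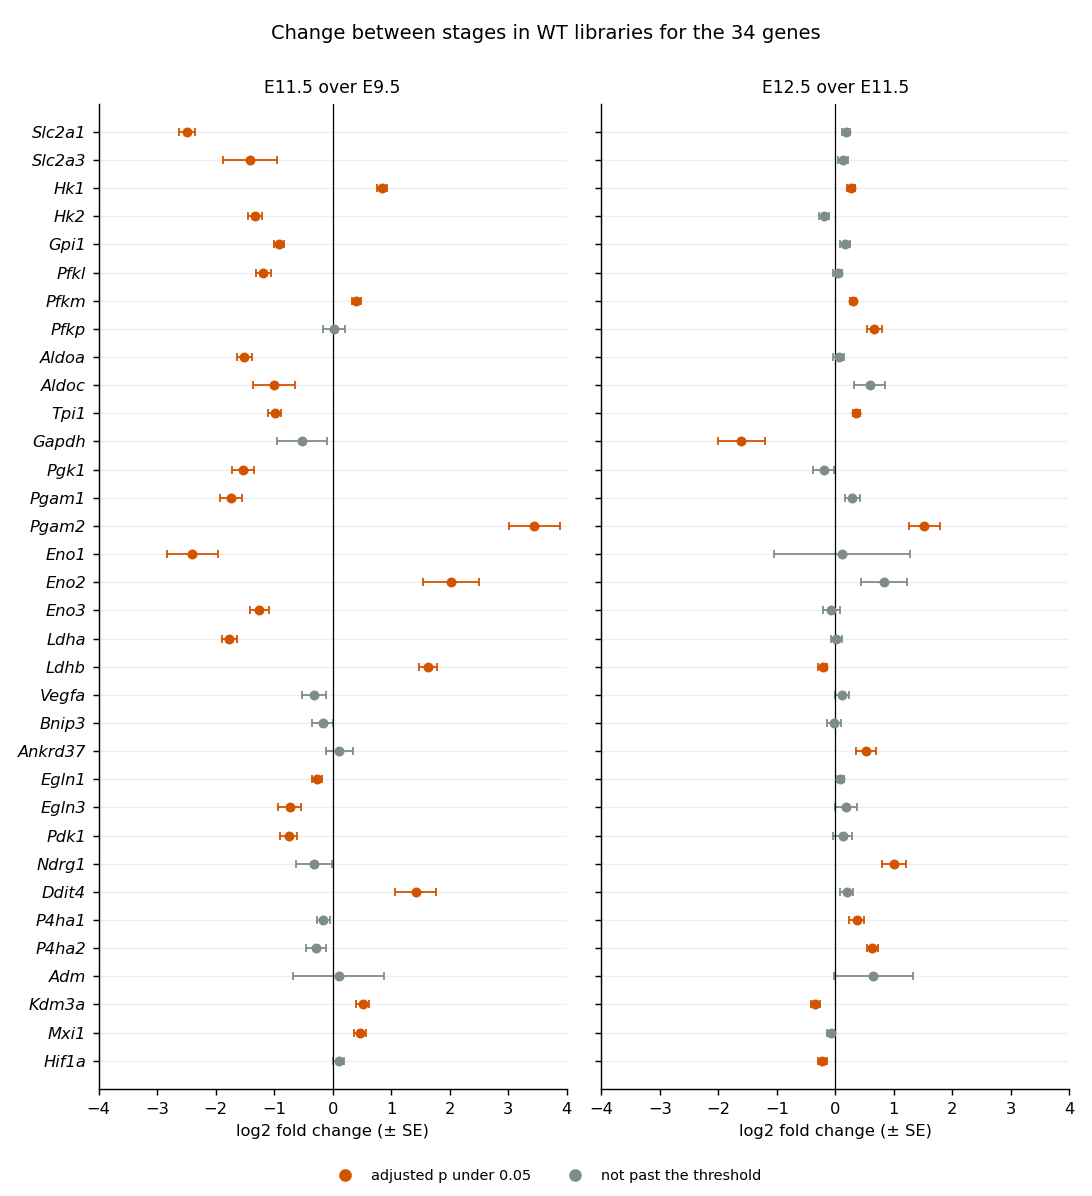
Log2 fold change with SE of the 34 genes between wild-type stages, E11.5 over E9.5 on the left and E12.5 over E11.5 on the right. Orange points passed adjusted p under 0.05 and grey points did not. On the left 16 genes were lower and 8 higher, from Slc2a1 at -2.49 to Pgam2 at 3.45.

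Genes of the hypoxia response did not move as one group. Egln1 and Egln3, the oxygen-sensing hydroxylase genes that HIF itself induces in part, fell by 0.26 ± 0.09 and 0.74 ± 0.20 on the log2 scale (SE, adjusted p = 0.0179 and 0.0063, edgeR). Pdk1, whose kinase inhibits pyruvate dehydrogenase, fell by 0.75 ± 0.15 (SE, edgeR adjusted p = 0.000788). Ddit4, a stress-induced inhibitor of mTORC1, rose by 1.42 ± 0.35 (SE, edgeR adjusted p = 0.00709), with 74.4, 83.1 and 76.8 RPKM at E11.5 and 40.9, 11.96 and 29.6 at E9.5. Kdm3a, a histone demethylase gene, and Mxi1, a gene of the MYC network, rose by 0.51 ± 0.10 and 0.47 ± 0.11 (SE, log2). Vegfa, the vascular growth factor gene, Bnip3, a gene of mitochondrial clearance, Adm, which encodes the peptide adrenomedullin, Ankrd37, Ndrg1, P4ha1, P4ha2 and Hif1a itself did not pass, with log2 fold changes from -0.32 for Ndrg1 and -0.32 for Vegfa to 0.12 for Ankrd37. Egln1 lost its call without E9.5 replicate 1 or 2 or E11.5 replicate 2 (adjusted p = 0.0503, 0.0575 and 0.0763). Hif1a measured 54.1, 58.6 and 61.3 RPKM in E11.5 and 49.3, 46.2 and 58.8 in E9.5 wild-type libraries, and these ranges overlapped.

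Other genes of the pathway, 67 of a list of 70 being in the tables, were called in both directions. Of 62 tested, 19 were higher and 22 lower in E11.5 than in E9.5 wild-type libraries, against the same background of 28.3% and 27.6%. The lowest adjusted p among the falls belonged to Stc2, Ak4, Slc16a1, Tfrc, Pkm and Mif. Pkm, which encodes the pyruvate kinase of the last step, fell by 1.08 ± 0.12 (SE, log2) and had means of 467 ± 33.7 RPKM at E11.5 and 942 ± 98.3 at E9.5 (SD, n = 3 each). Slc16a1, the lactate transporter gene MCT1, fell by 1.34 ± 0.11 and Ak4, an adenylate kinase gene, by 2.21 ± 0.15 (SE, log2). Among the rises were Slc2a4, the insulin-regulated glucose transporter gene, by 1.68 ± 0.13, Pdk2 by 1.73 ± 0.22 and Lox, the lysyl oxidase gene, by 4.71 ± 0.44 (SE, log2).

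A day later more of the genes rose than fell. Of the 34 genes, 9 were higher and 4 lower in E12.5 than in E11.5 wild-type hindlimbs, against 17.0% higher and 16.3% lower among all genes. Tpi1, Hk1, Pfkm and Pfkp rose by 0.36, 0.27, 0.30 and 0.67 on the log2 scale (adjusted p = 0.000847, 0.0092, 0.000955 and 0.00171, edgeR). Pgam2 rose by a further 1.52 ± 0.27 (SE, log2), with 17.9, 20.4 and 19.1 RPKM at E12.5 and 7.72, 7.32 and 4.04 at E11.5. All 15 skeletal muscle markers rose in this comparison, with summed levels of 751 to 1178 RPKM at E12.5 and 50.4 to 182 at E11.5, and their part in the change of Pgam2 was not tested.

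Among the hypoxia-response genes, P4ha1 and P4ha2, which encode the collagen prolyl hydroxylase subunits, rose by 0.37 ± 0.13 and 0.64 ± 0.10 on the log2 scale (SE, adjusted p = 0.0441 and 0.000729, edgeR). Ndrg1 rose by 0.999 ± 0.20 and Ankrd37, a small ankyrin repeat gene, by 0.52 ± 0.17 (SE, log2). The falls were those of Ldhb by 0.22 ± 0.07, Kdm3a by 0.34 ± 0.08, Hif1a by 0.23 ± 0.08 and the copy-bearing Gapdh by 1.61 ± 0.40. Beside the rise of the collagen hydroxylase genes, 9 of 11 tested cartilage markers rose, with summed levels of 608 to 669 RPKM at E12.5 and 271 to 384 at E11.5, and their part in it was not tested. Of these calls, 4 were lost when any 1 of several libraries was left out. Without E12.5 replicate 3, the library with the low Pitx1 level, P4ha1 had a log2 fold change of 0.18 (adjusted p = 0.203), Ldhb of -0.13 (adjusted p = 0.116) and Ankrd37 of 0.51 (adjusted p = 0.0782), while Ddit4 then passed with a rise of 0.35 (adjusted p = 0.00859, edgeR). Without single other libraries of E11.5 or E12.5, namely E11.5 replicate 1 or 2 for P4ha1, any E11.5 replicate for Ldhb and E11.5 replicate 1 or 3 or E12.5 replicate 1 for Ankrd37, the calls of these 3 were lost too (adjusted p = 0.0535 to 0.144). That of Hif1a was lost without E11.5 replicate 2 or 3 or E12.5 replicate 1 or 2 (adjusted p = 0.0533 to 0.162), with a log2 fold change of -0.14 without E12.5 replicate 2. In the fit of all 18 libraries Ldhb, Hif1a and Ankrd37 did not pass (adjusted p = 0.26, 0.103 and 0.062, edgeR), and without the filter on low counts P4ha1 did not (adjusted p = 0.0621). Of the 61 other pathway genes tested, 14 rose and 10 fell, against 17.0% higher and 16.3% lower among all genes. Plod1, a collagen lysyl hydroxylase gene, rose by 0.77 ± 0.11 and Car12, a carbonic anhydrase gene, by 1.13 ± 0.17 (SE, log2).

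**Figure D2:**
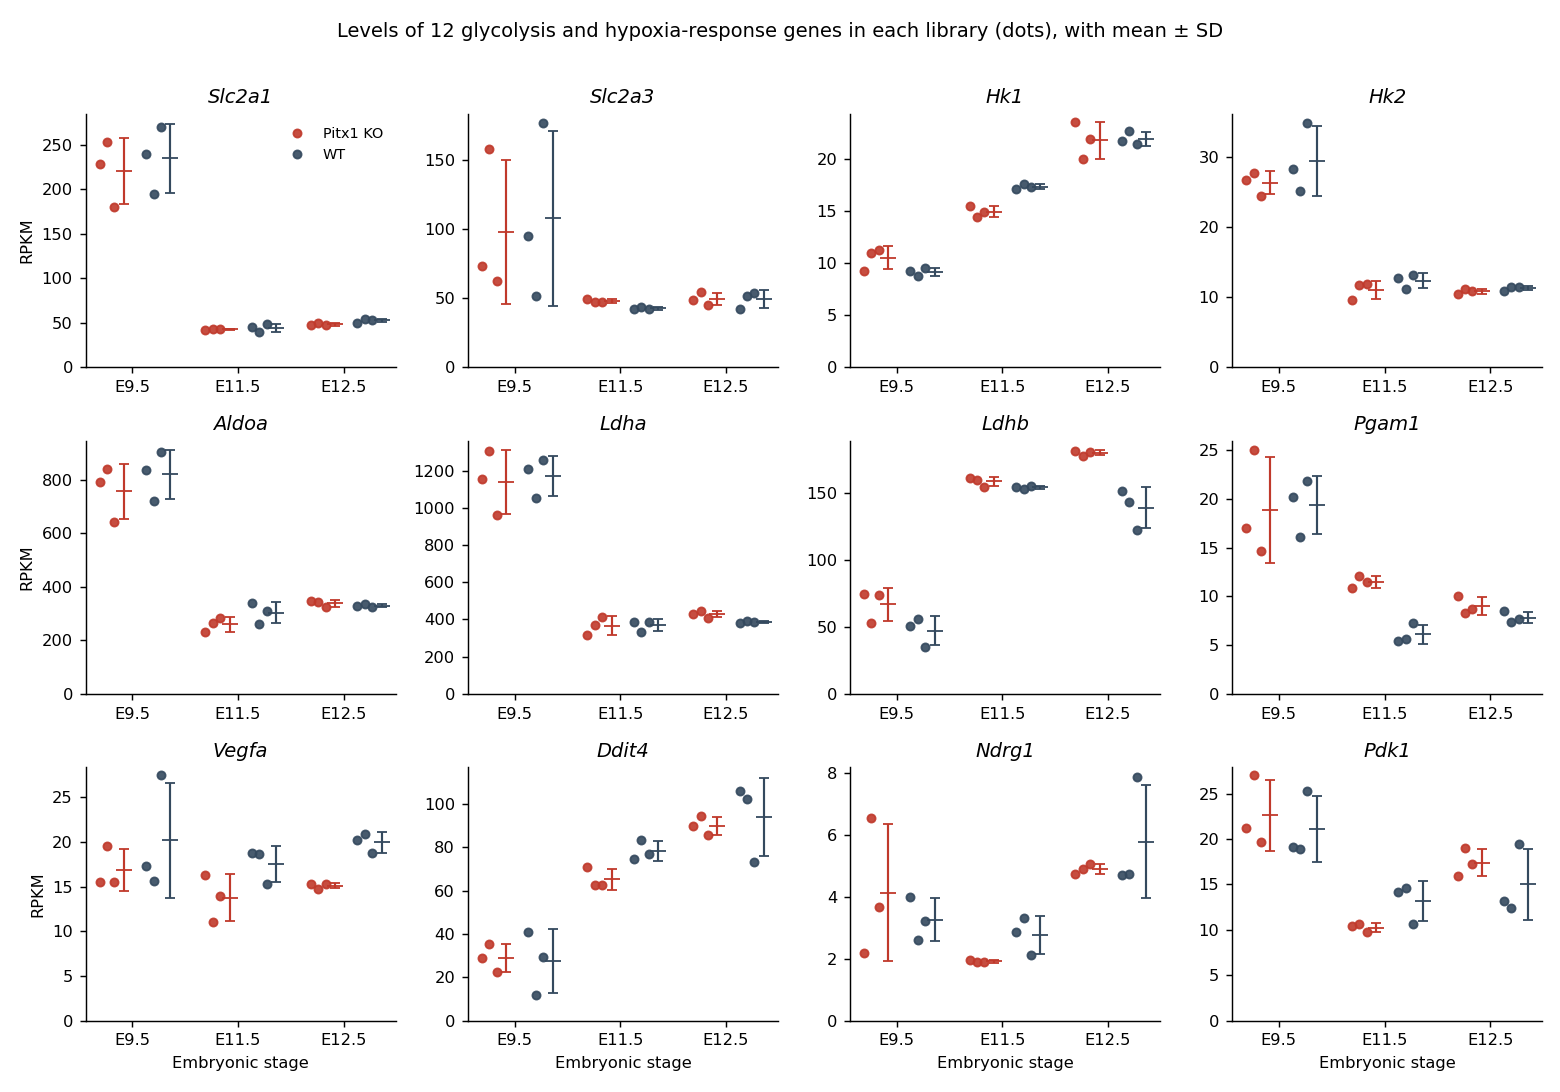
RPKM of 12 of the genes in each library, by stage, with Pitx1 knockout in red left of wild type in blue; dots are libraries and bars the mean with SD of 3. Slc2a1, Hk2, Aldoa and Ldha are highest at E9.5 in both genotypes, Hk1, Ldhb and Ddit4 at the later stages, and RPKM was normalized separately at each stage.

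Between genotypes, 2 of the genes passed at E11.5 and none at E9.5 or E12.5. Pitx1 itself passed the same test at E9.5 and E11.5 but not at E12.5 (log2 fold change -2.92 ± 0.40, edgeR adjusted p = 0.125). The lack of calls at E12.5 therefore does not show that the genes were unchanged. At E9.5 none of the 33 tested genes passed edgeR's test, against 0.0218% of all genes, and Pgam2 was too low for the test. Of these 33, 1 had an unadjusted p under 0.05, against 566 of 13785 genes tested, and DESeq2 called 0. That gene was Ldhb, with 74.2, 52.9 and 73.8 RPKM in knockout and 50.4, 56.3 and 35.2 in wild-type libraries, whose ranges overlapped (log2 fold change 0.50 ± 0.20, edgeR adjusted p = 0.999). The RPKM ranges of the genotypes did not overlap for Egln1, higher in the knockout, and Gapdh, lower in the knockout, or 2 of 33, against 9.29% of all genes. For Gapdh these values rest on few fragments, as given above. As fold changes, knockout over wild type, the 95% interval for Slc2a1 ran from 0.735 to 1.19 and for Ldha from 0.804 to 1.16, but for Slc2a3 from 0.304 to 2.68.

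Slc2a3, with its wide interval, had libraries that differed within a genotype. It measured 73.3, 157.6 and 62.2 RPKM in knockout and 94.9, 51.8 and 176.6 in wild-type libraries at E9.5. Knockout replicate 2 and wild-type replicate 3 were high. By library-scaled counts the same libraries were the highest of the 6 for many of the genes, knockout replicate 2 for 11 and wild-type replicate 3 for 10 of 33, against 1723 and 2933 of all 13785 genes tested. Knockout replicate 3 was the lowest for 10 and wild-type replicate 2 for 11, against 1987 and 2019 of all 13785. Pfkl, for instance, measured 144, 164.0 and 119 RPKM in the knockout and 129, 118 and 164 in the wild type. The 10 immediate early genes, which respond to handling, summed to 114, 96.7 and 93.0 RPKM in knockout and 96.9, 111.7 and 98.95 in wild-type libraries. Red blood cell markers summed to 22750, 31500 and 27150 RPKM in knockout and 25760, 22260 and 14130 RPKM in wild-type libraries, and the part of either list in these differences was not tested.

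At E11.5 2 of the 34 genes passed the threshold, Pgam1 higher and Eno1 lower in the knockout, against 1.94% of all genes, and both have near-identical copies. Pgam1 measured 10.9, 12.1 and 11.51 RPKM in knockout and 5.42, 5.61 and 7.26 in wild-type hindlimbs. All knockout libraries were above all wild-type libraries, with a log2 fold change of 0.91 ± 0.14 (SE, edgeR adjusted p = 0.0203). The call was lost without knockout replicate 3 (adjusted p = 0.0951) and without wild-type replicate 1 (adjusted p = 0.149), with log2 fold changes of 0.92 and 0.84. Pgam1 has a pseudogene copy of 100% identity, so fragments from the matched stretch cannot be told apart by sequence. At E9.5 its log2 fold change was -0.04 ± 0.20 and at E12.5 0.21 ± 0.12 (SE), neither past the threshold.

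Eno1 was the other call. It was listed at 0 fragments in all 3 knockout libraries and at 37, 62 and 25 in the wild-type libraries of E11.5. With a floor of 3 counts over the group it was at least 57.6-fold lower in the knockout (adjusted p = 0.0146, edgeR). The call was lost without knockout replicate 3 (adjusted p = 0.0524) and without wild-type replicate 1 (adjusted p = 0.129). The listed values were, however, whole multiples of about 12.53 fragments in all 18 libraries, to within 0.13 of a step, so that the wild-type values stood for 3, 5 and 2 steps. Counted in steps the gene was at least 4.64-fold lower and did not pass. Its copy Eno1b measured 35.2, 49.1 and 48.5 RPKM in knockout and 49.5, 35.9 and 43.6 in wild-type hindlimbs, which overlapped. Summed with Eno1b, the log2 fold change was 0.02 (adjusted p = 0.946, edgeR). That sum is almost wholly Eno1b, so it does not test Eno1 itself. Of the 26 genes without copies, none passed at E11.5 in edgeR or DESeq2, and 9 had an unadjusted p under 0.05 in edgeR. DESeq2 called Pgk1, a copy-bearing gene, besides Pgam1 and Eno1, with a log2 fold change of -0.58 (adjusted p = 0.0226). Over all genes DESeq2 called 1279 at E11.5, against 283 by edgeR.

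Of the 34 genes, 26 had a negative log2 fold change at E11.5, against 7589 of 14582 genes tested. The median was -0.16 over the 34 and -0.01 over all genes. The 34 values come from the same 6 libraries, so their signs are not independent. Unadjusted p was under 0.05 for 12 of the 34, against 3235 of 14582 genes tested. The genotypes did not overlap in RPKM for 11 genes, against 27.7% of all genes, so this share was close to the background. Those lower in the knockout were Hk1, Pfkm, Aldoc, Gapdh, Eno1, Ndrg1, Ddit4, P4ha2 and Mxi1, and those higher were Slc2a3 and Pgam1. Ddit4 measured 70.8, 62.4 and 62.6 RPKM in knockout and 74.4, 83.1 and 76.8 in wild-type hindlimbs (log2 fold change -0.26 ± 0.08, edgeR adjusted p = 0.114). Hk1 measured 15.5, 14.4 and 14.8 RPKM in the knockout and 17.1, 17.6 and 17.3 in the wild type (log2 fold change -0.21 ± 0.07, edgeR adjusted p = 0.122). Pdk1 lay at 10.4, 10.7 and 9.72 RPKM in the knockout and 14.2, 14.7 and 10.6 in the wild type (log2 fold change -0.36 ± 0.12, edgeR adjusted p = 0.119) and passed without wild-type replicate 3, with -0.49 (adjusted p = 0.02). Eno2 likewise passed only without knockout replicate 1, with -1.58 (adjusted p = 0.0406). Ldha and Aldoa, the most abundant, had 95% intervals of the fold change from 0.853 to 1.18 and from 0.725 to 1.02.

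Summed marker levels of muscle, cartilage and macrophages lay lower in all of the same knockout hindlimbs than in any wild-type one. The 15 muscle markers summed to 15.1 to 30.1 RPKM in knockout and 50.4 to 182 in wild-type libraries at E11.5, and Ckm, Ttn and Neb were under 0.1 RPKM in the knockout. The 11 cartilage markers summed to 147 to 215 RPKM in the knockout and 271 to 384 in the wild type, and the 10 macrophage markers to 21.1 to 24.9 in the knockout and 26.0 to 36.1 in the wild type. Of the markers tested, 2 of 14 for muscle, 5 of 11 for cartilage and 0 of 10 for macrophages passed as lower in edgeR, with 14, 10 and 6 of them at an unadjusted p under 0.05, and DESeq2 called 10, 8 and 2. Pgam2 lay at 5.20, 2.94 and 3.20 RPKM in knockout and 7.72, 7.32 and 4.04 in wild-type hindlimbs and did not pass (log2 fold change -0.75 ± 0.31, edgeR adjusted p = 0.195). The part of these cell types in the values of the 34 genes was not tested.

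Of the 61 other pathway genes tested at E11.5, 1 was higher and 1 lower in the knockout. Pdha1, which encodes the subunit of pyruvate dehydrogenase that Pdk1 acts on, measured 70.2, 72.7 and 72.2 RPKM in knockout and 54.8, 56.3 and 58.4 in wild-type hindlimbs. The ranges lay apart (log2 fold change 0.35 ± 0.07, edgeR adjusted p = 0.0331). Igfbp3, which encodes a binding protein for insulin-like growth factors, fell to 22.3, 25.6 and 25.1 RPKM in the knockout, against 44.1, 45.0 and 36.6 in the wild type (log2 fold change -0.78 ± 0.10, edgeR adjusted p = 0.00813). DESeq2 called 6 there, these 2 among them, and 1279 over all genes. In edgeR 14 had an unadjusted p under 0.05, against 3235 of 14582 genes tested. None of the 60 others tested passed at E9.5, where 1 had an unadjusted p under 0.05, against 566 of 13785 genes tested, and DESeq2 called 0. None of 60 passed at E12.5 either, where 10 had an unadjusted p under 0.05, against 2184 of 14475. There DESeq2 called 1, Car12, and 448 over all genes.

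At E12.5 none of the 33 tested genes passed, against 0.0138% of all genes, and 10 had an unadjusted p under 0.05, against 2184 of 14475 genes tested. Gapdh was too low for the test. The genotypes did not overlap for 10 of the 33, against 21.7% of all genes. Those higher in the knockout were Pfkm, Ldha, Ldhb and Kdm3a, and those lower were Slc2a1, Aldoc, Pgam2, Vegfa, Egln3 and P4ha1. The median log2 fold change was -0.001 over the 33 and -0.001 over all genes.

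Vegfa had the lowest adjusted p of the 33, and it lay at 15.3, 14.8 and 15.4 RPKM in knockout and 20.2, 20.95 and 18.7 in wild-type hindlimbs (log2 fold change -0.40 ± 0.07, edgeR adjusted p = 0.107). At the earlier stages its log2 fold change was also negative, -0.27 ± 0.21 at E9.5 and -0.34 ± 0.13 at E11.5, and the libraries overlapped. Ldhb lay at 181.5, 178 and 180.2 RPKM in knockout and 152, 143 and 122 in wild-type hindlimbs at E12.5 (log2 fold change 0.37 ± 0.08, edgeR adjusted p = 0.155). Kdm3a lay at 36.0, 34.9 and 33.4 RPKM in the knockout and 30.5, 28.4 and 27.5 in the wild type (log2 fold change 0.27 ± 0.06, edgeR adjusted p = 0.160). DESeq2 called these 3 genes and no other of the 34, with adjusted p = 0.00137 for Vegfa, 0.00531 for Ldhb and 0.0143 for Kdm3a. Over all genes DESeq2 called 448 at E12.5, against 2 by edgeR.

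Pfkm, at 45.0, 44.7 and 46.2 RPKM in knockout and 40.6, 41.2 and 41.2 in wild-type hindlimbs, and Ldha, at 428, 443 and 410.4 RPKM in the knockout and 383, 393 and 387.5 in the wild type, each had a log2 fold change of 0.14 ± 0.05 and missed the threshold (edgeR adjusted p = 0.276 and 0.288). Aldoc had the most negative log2 fold change among the genes without copies, -0.82 ± 0.22, from low levels of 1.48, 2.34 and 2.10 RPKM in the knockout and 3.19, 3.94 and 3.39 in the wild type. Hif1a lay at 52.0, 51.9 and 51.9 RPKM in the knockout and 53.5, 45.5 and 57.0 in the wild type, with a 95% interval of the fold change from 0.876 to 1.14. Neuron markers summed to 47.1 to 54.7 RPKM in knockout and 58.8 to 67.1 in wild-type hindlimbs at E12.5, and macrophage markers to 36.0 to 49.1 in knockout and 53.7 to 67.5 in wild-type hindlimbs. Muscle markers summed to 405 to 923 in knockout and 751 to 1178 in wild-type hindlimbs, and cartilage markers to 362 to 479 in knockout and 608 to 669 in wild-type hindlimbs. No marker of these lists passed in edgeR, while 4 neuron, 3 macrophage, 6 muscle and 9 cartilage markers were at an unadjusted p under 0.05, and by DESeq2 2, 1, 1 and 9 were called. The part of these cell types in the differences at E12.5 was not tested.

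**Figure D3:**
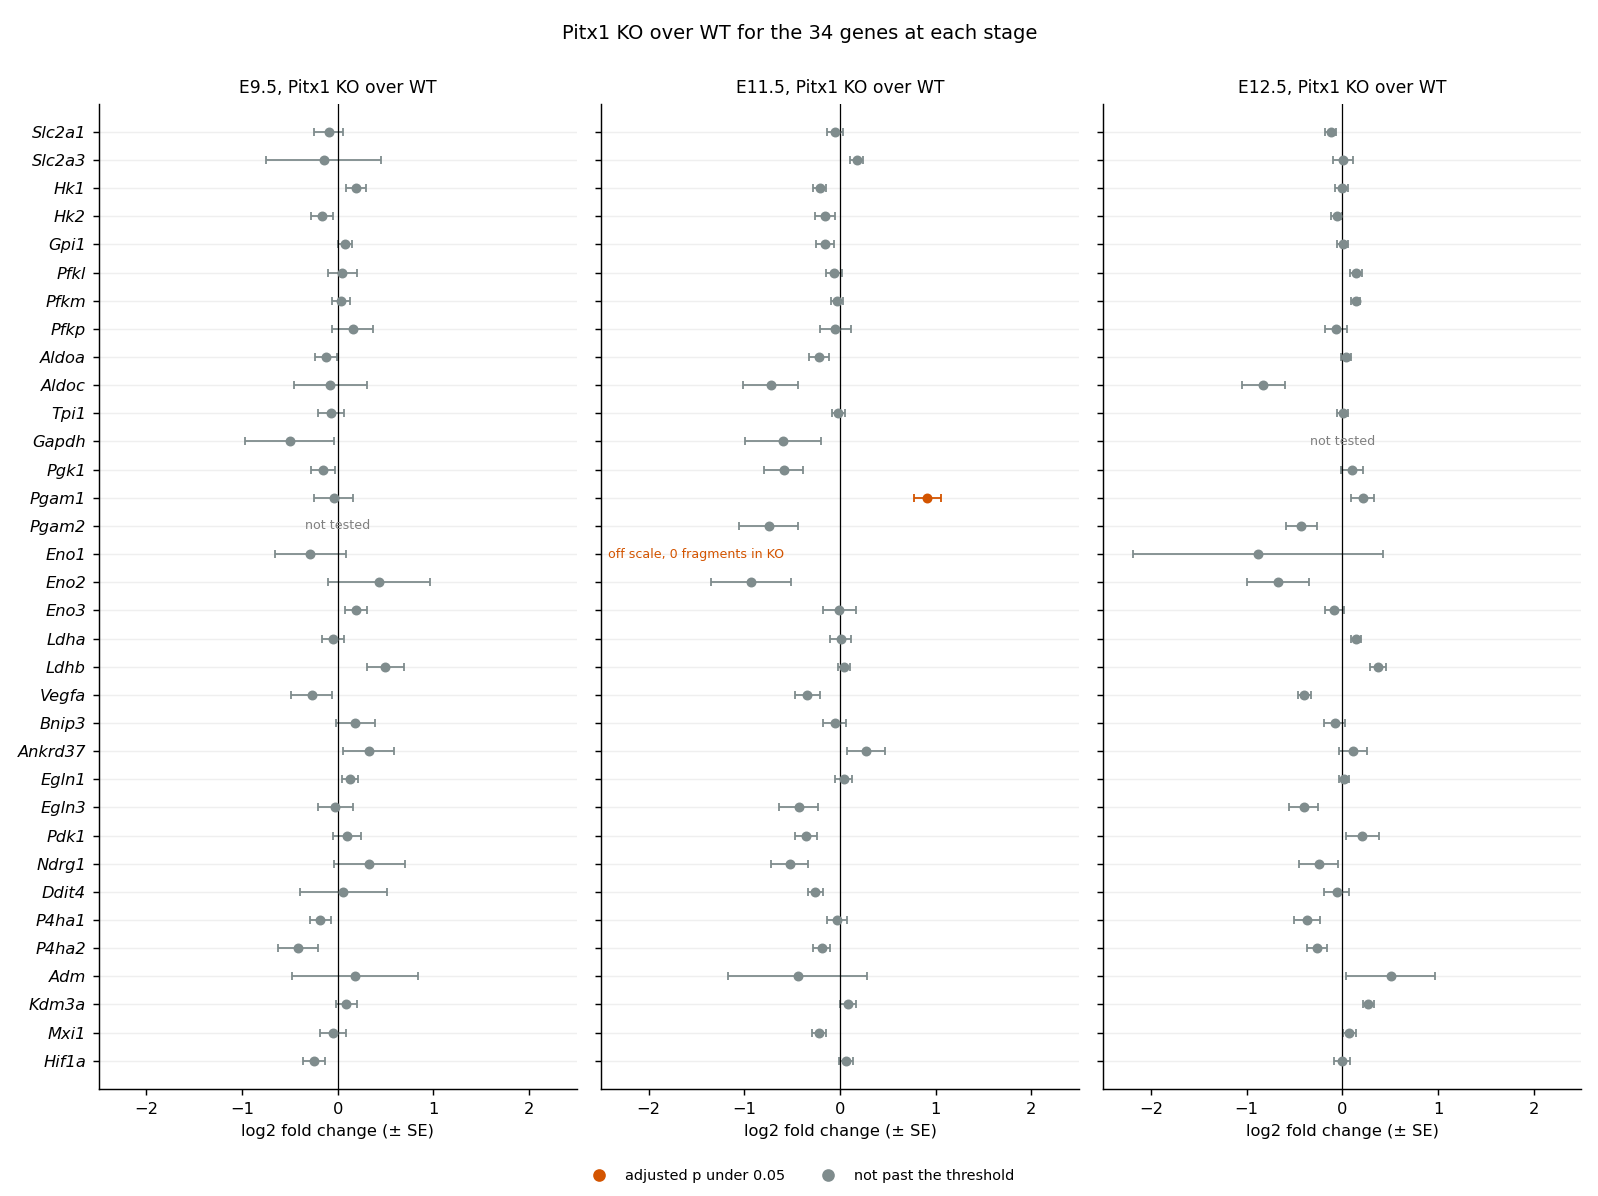
Log2 fold change with SE of the 34 genes, Pitx1 knockout over wild type, with a panel per stage. Orange marks adjusted p under 0.05, which Pgam1 and Eno1 reached at E11.5; Eno1 is off scale there because the knockout libraries were listed at 0, and 1 gene was not tested at E9.5 and 1 at E12.5.

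The effect of the knockout was then compared between stages. Between E11.5 and E9.5, 1 of the 34 genes differed in its knockout effect, against 0.0261% of all genes, and that gene was Eno1. Between E12.5 and E11.5 none did, against 0.00653% of all genes. Of the 34, 8 had an unadjusted p under 0.05 there, against 1582 of 15305 genes tested. DESeq2 called 1 of them, Pgam1 (log2 difference -0.71, adjusted p = 0.0446), and 113 over all genes. In edgeR the difference for Pgam1 between E11.5 and E9.5 was 0.95 ± 0.26 (SE, log2, adjusted p = 0.149) and that between E12.5 and E11.5 was -0.71 ± 0.18 (adjusted p = 0.293). Both differences use the same E11.5 libraries. For Hk1 the knockout effect differed by -0.41 ± 0.12 between E11.5 and E9.5 (SE, log2, edgeR adjusted p = 0.158), which did not pass.

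The balance of the isoenzymes differed between E9.5 and the later stages in both genotypes. The dissected tissue differed there too, so stage and tissue cannot be told apart. In knockout libraries the share of Ldhb in the summed RPKM of Ldha and Ldhb was 5.69 ± 1.64% at E9.5, 30.3 ± 3.31% at E11.5 and 29.6 ± 0.957% at E12.5 (SD, n = 3 each). In wild-type libraries it was 3.94 ± 1.18%, 29.6 ± 1.72% and 26.4 ± 2.24%. Genotypes overlapped at E9.5 and E11.5 and lay apart at E12.5, with 28.6 to 30.5% in the knockout and 23.97 to 28.4% in the wild type. The shares are given without a test, since with 3 libraries against 3 an exact permutation test cannot give a two-sided p below 0.1.

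The share of Hk1 among both hexokinases was 28.5 ± 2.93%, 57.5 ± 3.80% and 66.7 ± 2.62% at the 3 stages in the knockout, and 23.9 ± 2.28%, 58.4 ± 2.46% and 65.95 ± 0.763% in the wild type. The share of Slc2a3 among both transporters was 29.5 ± 7.73%, 53.2 ± 1.09% and 50.5 ± 1.63% in the knockout, and 29.7 ± 9.29%, 49.3 ± 3.07% and 48.2 ± 2.48% in the wild type. For both shares the ranges of the genotypes overlapped at every stage. The share of P4ha2 among the collagen hydroxylase subunits varied less, between 33.3 ± 0.770% and 42.0 ± 1.60% in the knockout and between 36.2 ± 4.49% and 40.6 ± 2.27% in the wild type.

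**Figure D4:**
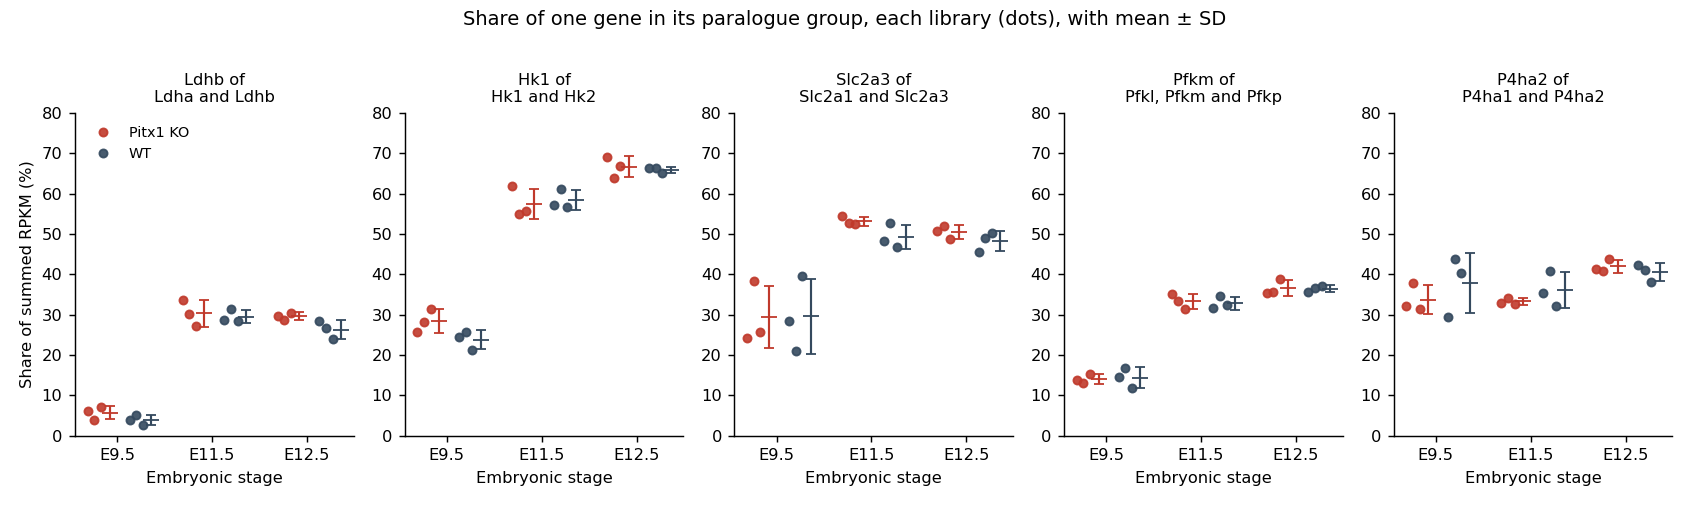
Share of 1 gene in the summed RPKM of its paralogue group in each library, Pitx1 knockout in red left of wild type in blue, with mean and SD of 3 libraries. The shares of Ldhb, Hk1, Slc2a3 and Pfkm are higher at E11.5 and E12.5 than at E9.5 in both genotypes. Ldhb, for instance, was at 5.69% and 30.3% in the knockout at E9.5 and E11.5. The E9.5 tissue was the field with trunk, so stage and tissue cannot be told apart.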

How the data were processed

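Libraries were stranded TruSeq mRNA preparations of mirVana-extracted RNA, run on a NextSeq machine, per the labels' protocols. FastQC, TopHat2, Cuffdiff and mouse build mm9 are named without versions per the submitters' processing notes; the sources used here do not give the annotation, the strand setting or the assignment of shared fragments. There was 1 table for each stage. The deposited raw fragments are estimated counts and can be fractional, per the file headers. The RPKM values were deposited by the authors, scaled per kilobase and library size, and normalized separately by stage. Replicates numbered from 0 in the tables were taken in order as 1 to 3. Each table listed 23929 names; 2 date names standing for 2 genes each and 25 genes with a failed estimate were left out, 1.79% of fragment values were not whole and all were rounded.

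Genotypes were compared within a stage (6 libraries), and stages and differences of the knockout effect in fits of 12 libraries, with edgeR 4.0.16 in R 4.3.3 (TMM, filterByExpr, robust quasi-likelihood F test, Benjamini-Hochberg over all genes tested, threshold 0.05). SE was derived from F and stands beside each log2 fold change, and each log2 fold change is knockout over wild type or later over earlier stage. Replicates differed beyond sampling noise in every pair (the smallest chi-square over its degrees of freedom was 8.25). Intervals cover the spread between libraries. Copies were found with blastn 2.17.0 in GENCODE M21 transcripts, and promoters come from RefSeq. All 34 genes could be named, and of the other pathway genes at most 6 per direction and comparison by adjusted p; Car12 at E12.5 between genotypes is named as the gene DESeq2 called, after its values were seen. The genes and lists were chosen with earlier results of these data known. Alternatives were RLE size factors, DESeq2 1.42.0, no filter, a fit of all 18 libraries, a block for the replicate number, copies summed, limma 3.58.1 on log2(RPKM + 1) or log2(RPKM + 0.1), leaving out each library and, added after the data were seen, Eno1 counted in steps. For copies summed, Eno1b was added to Eno1, and Aldoart1 and Aldoart2, which the copy search did not count, to Aldoa. No other gene was summed with its copies. The edgeR tests were also run on simulated counts, and the outcome is not given here.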

Additional observations from a re-analysis of the deposited data

Results flagged for a closer look

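The effect of the Pitx1 knockout on Eno1 differed between E11.5 and E9.5, by a test of the difference itself (edgeR, adjusted p = 0.0322). The fitted log2 difference was -7.853, a value that depends on the prior count because all 3 knockout libraries were listed at 0 at E11.5. Eno1 had 75, 62 and 75 fragments in knockout and 324, 62 and 100 in wild-type libraries at E9.5, and 0, 0 and 0 in knockout and 37, 62 and 25 in wild-type libraries at E11.5. The call was lost when Eno1 was counted in steps (edgeR, adjusted p = 0.2). It was also lost when Eno1 was summed with Eno1b (log2 difference -0.06, adjusted p = 0.939, edgeR). That sum is almost wholly Eno1b and does not test Eno1 itself. Without E9.5 knockout replicate 1, E11.5 knockout replicate 2 or 3, or E11.5 wild-type replicate 1, adjusted p was 0.0626 to 0.138. None of the other 33 genes differed in this test by edgeR, with 5 of the 34 at an unadjusted p under 0.05, against 2340 of 15353 genes tested. DESeq2 called Pgam1 as well (log2 difference 0.95, adjusted p = 0.0286), and 358 over all genes.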

How the results depend on the processing

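RLE size factors changed no count past the bounds set, and moved the median log2 fold change of all genes by under 0.01. The number of the 34 genes called between genotypes was 0 at E9.5 under every alternative. At E11.5 it was 2, and 3 by DESeq2 but 1 with copies summed or Eno1 counted in steps. That remaining call was Pgam1, which was not summed with its copy. With copies summed Eno1 turned to a log2 fold change of 0.0224 (adjusted p = 0.946). At E12.5 it was 0, and 3 by DESeq2 and 3 with the replicate number as a block. For the change between E9.5 and E11.5 it was 1, and 2 by DESeq2 but 0 in the fit of 18 libraries, with the replicate block, with copies summed and in steps; for that between E11.5 and E12.5 it was 0, and 1 by DESeq2. Over all genes the main counts were 3 at E9.5, 283 at E11.5 and 2 at E12.5. In that order of stages DESeq2 called 19, 1279 and 448, the fit of 18 libraries 0, 693 and 23, and the replicate block 0, 99 and 381. Without a filter the counts were 521 at E11.5 and 5 at E12.5. With limma on log2(RPKM + 1) they were 148 at E11.5 and 4 at E12.5, and with log2(RPKM + 0.1) 5 at E12.5. For the change of the knockout effect between E9.5 and E11.5, over all genes, the main count was 4, with 358 by DESeq2, 15 in the fit of 18 libraries and 1 with the replicate block. For that between E11.5 and E12.5 it was 1, with 113 by DESeq2, 2 without a filter and 0 in the fit of 18 libraries. The cause of these differences was not tested.

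Leaving out 1 library at a time gave 0 to 0 of the 34 genes at E9.5, 0 to 3 at E11.5 and 0 to 0 at E12.5, and 0 to 2, 9 to 640 and 1 to 17 over all genes. For the change of the knockout effect it gave 0 to 1 of the 34 and 0 to 9 of all genes between E9.5 and E11.5, and 0 to 0 and 0 to 5 between E11.5 and E12.5. The stage counts in the wild type were 21 to 23 of the 34 and 7326 to 8347 of all genes between E9.5 and E11.5, and 10 to 12 and 3410 to 4972 between E11.5 and E12.5, against 24, 8572, 13 and 5097 with all libraries. Over single genes and alternatives, 3449 values kept direction and side of the threshold. Of the rest, 44 lost and 18 gained a call, and 159 uncalled values changed sign. The 1 called value that was reversed was that of Eno1 at E11.5 when summed with Eno1b.

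Same-numbered knockout and wild-type libraries had correlations of their deviations of 0.02, -0.39 and -0.37 at E9.5 and 0.04, -0.23 and 0.05 at E11.5. At E12.5 these correlations were 0.17, -0.03 and 0.23. Between differently numbered libraries the correlations ran from -0.20 to 0.46 at E9.5, -0.36 to 0.31 at E11.5 and -0.22 to 0.05 at E12.5. Whether the replicate numbers pair the libraries was not tested. With the block Vegfa, Ldhb and Kdm3a passed at E12.5 (adjusted p = 0.0348, 0.0365 and 0.0418, edgeR), and Slc2a3 no longer passed between E11.5 and E9.5 in the wild type (adjusted p = 0.0547). Few fragments limit Gapdh, Adm, Eno1, Eno2 and, at E9.5, Pgam2 in some or all libraries; for the copy-bearing Gapdh and Eno1, low counts from the assignment of shared fragments and low expression cannot be told apart.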
